A study of Caenorhabditis elegans with 2 samples.

Results

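The genes that set temporal identity in the larval worm were examined for binding of NHR-25, a nuclear hormone receptor of the NR5A family. The set holds 10 genes: lin-14, lin-28, lin-46, hbl-1, lin-41, lin-66, lin-29, mab-10, lep-2 and apl-1. They were located by symbol among the 19985 protein-coding genes of the Ensembl release 115 annotation of Caenorhabditis elegans assembly WBcel235 (ce11), and all 10 were found. Each gene's window was the gene plus 5 kb upstream of its outermost 5′ end. A peak belonged to the gene when its summit, the position of highest signal within the peak, lay in that window. Binding was mapped by chromatin immunoprecipitation and sequencing (ChIP-seq) in L4 larvae, the last larval stage. There was a single group of 2 biological replicates of whole hermaphrodites of unknown age. Both came from strain OP33, which has the genotype unc-119(ed3) III; wgIs33 and stably expresses a transgenic NHR-25 fused at its C-terminal end to a GFP-FLAG tag. An antibody to GFP was used, so the tagged protein was measured in all tissues together, in 1 transgenic line.

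Replicate 1 had 23929 deposited peaks and replicate 2 had 30000, the pooled list 30000 and the thresholded list 1826. The thresholded peaks were exactly the 1826 strongest pooled peaks, so every other pooled peak is described here as below the threshold. The pooled list is labelled as holding peaks and background together. A pooled peak below the threshold may therefore be background, and the number of pooled peaks per kb does not count bound sites. The signal of each peak is the authors' deposited value on an unstated scale. It was compared only within a list, and ranks count from 1 at the strongest peak. Read depth is unknown. With 1 condition there is no contrast to test, so counts are set beside the same counts over all genes or all peaks, with no p. The genes and motifs were also chosen with earlier results of these data known, so they are not an unselected set.

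Larval cells in the worm divide and differentiate on a stage-specific schedule set by the heterochronic pathway. LIN-14, LIN-28 and HBL-1 promote early fates and are shut off in turn by microRNAs of the lin-4 and let-7 families. When let-7 lowers LIN-41 at the end of larval life, LIN-29 and its cofactor MAB-10 act in the epidermis to bring about adult fates. NHR-25 itself acts in epidermal development and molting.

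Of the 10 genes, 8 had at least 1 thresholded summit, and together they had 11. Among all 19985 protein-coding genes, 2621 (13.1%) had a thresholded summit in the same kind of window. The genes without any were lin-46 and lep-2. In 5 genes the strongest peak lay well above the median thresholded signal of 41.2. These were lin-29 with 82.9, hbl-1 with 74.6, lin-41 with 67.1, mab-10 with 64.5 and lin-66 with 59.1, at ranks 128, 185, 238, 279 and 361 of 1826. The other 6 summits, in lin-14, lin-28, lin-29 and apl-1, had signals from 32.7 to 40.4, below the median. The highest of them, at lin-14, was just under the median, and the lowest thresholded signal was 30.3. Over all 11 summits the median was 40.4.

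**Figure D1:**
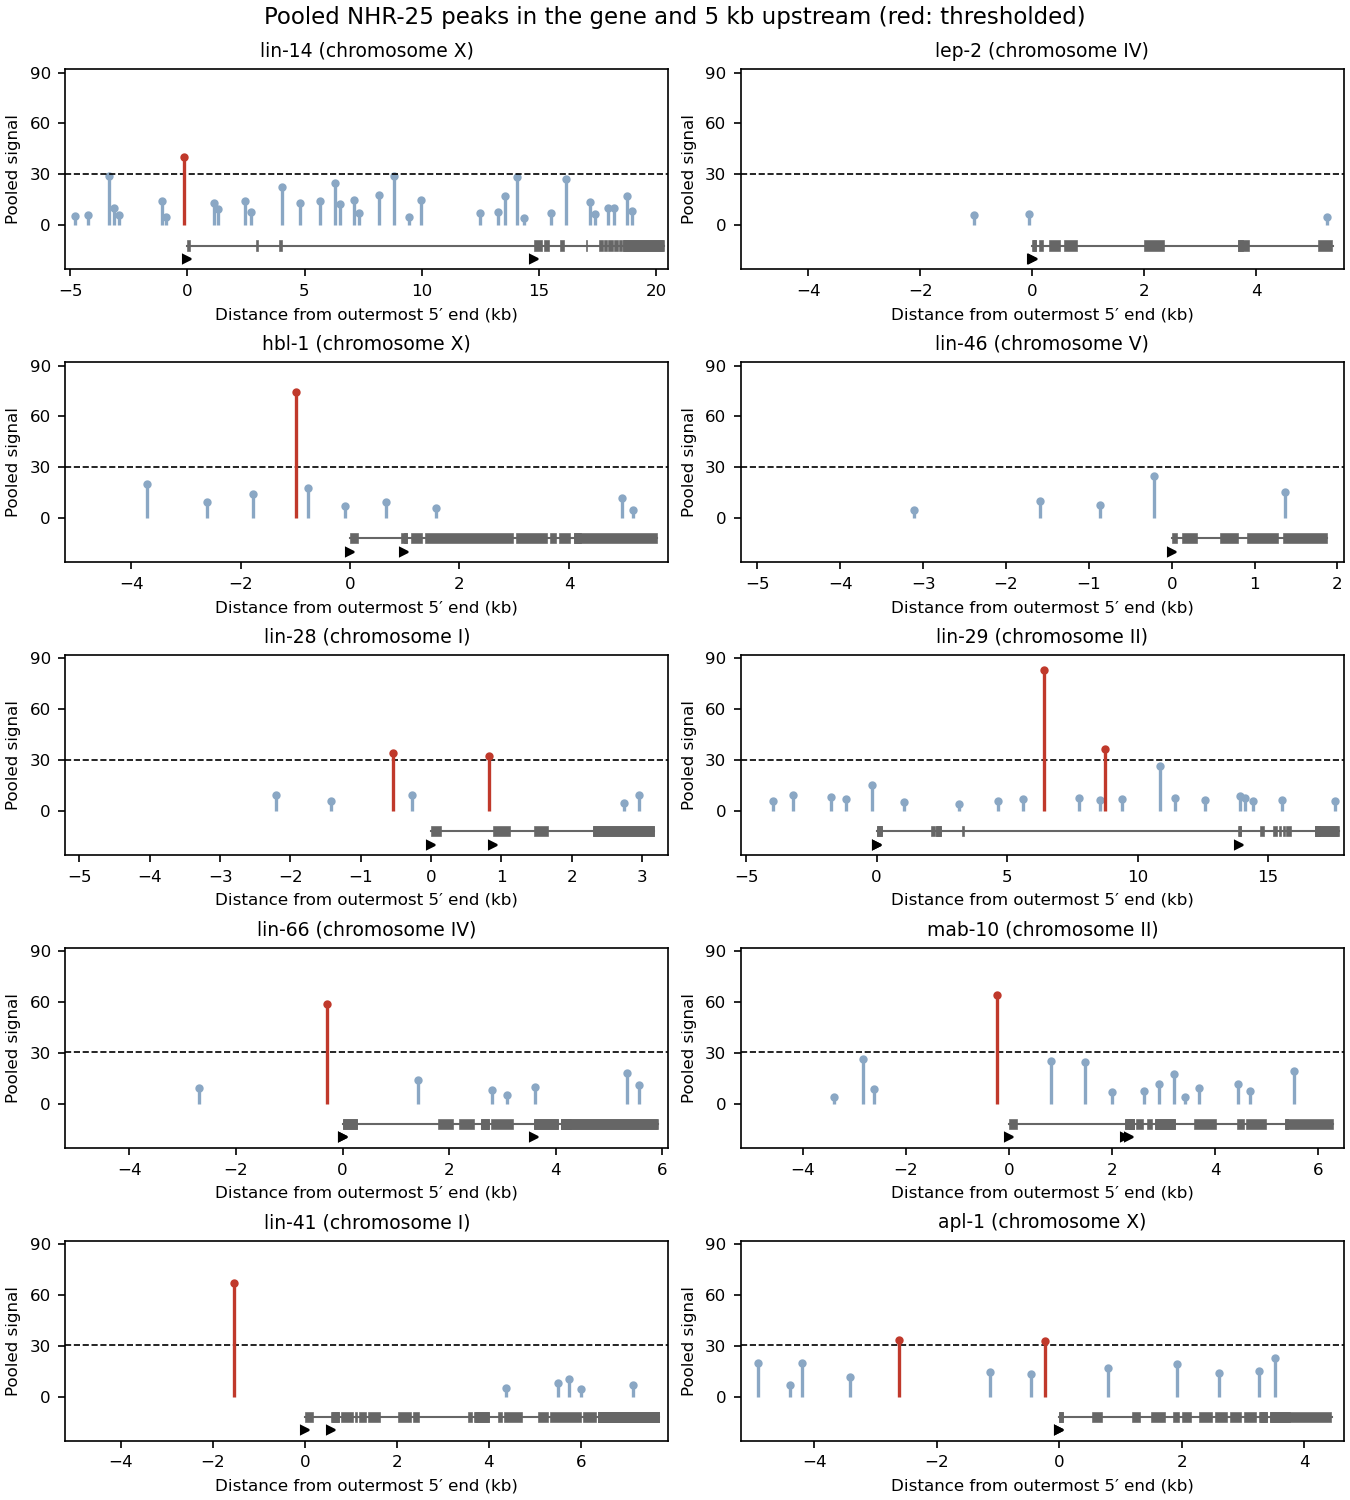
Pooled peaks in the window of each of the 10 genes. The horizontal axis is the distance in kb from the gene's outermost 5′ end, in the direction of transcription, and the vertical axis is the authors' pooled signal. Red stems are thresholded summits, blue stems lie below the threshold, the dashed line is the lowest thresholded signal (30.3), grey boxes are exons and black arrowheads annotated 5′ ends. A single tall stem stands out at hbl-1, lin-66, lin-41 and mab-10, the tallest of all (82.9) lies inside lin-29, and lin-46 and lep-2 have no red stem.

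The share of genes with a summit differed with window length. The windows of the 10 genes ran from 6876 to 25312 bp with a median of 10761 bp, against 7026 bp over all genes, and 8 of the 10 genes fell among the longest 20% of windows. There 18.9% of genes had a thresholded summit, and 7 of the 8 did. Chromosome X, which holds 3 of the 10 genes, had a summit at 16.8% of its genes, and autosomes at 12.5%. The counts were 3 of 3 for lin-14, hbl-1 and apl-1 on X and 5 of 7 on autosomes. For all 11 summits the nearest protein-coding 5′ end was that of the gene itself, and no other annotated gene (piRNA genes not considered) covered the summit. Whether a summit also lay in the window of another gene, or nearer to the 5′ end of a noncoding gene, was not examined.

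**Figure D2:**
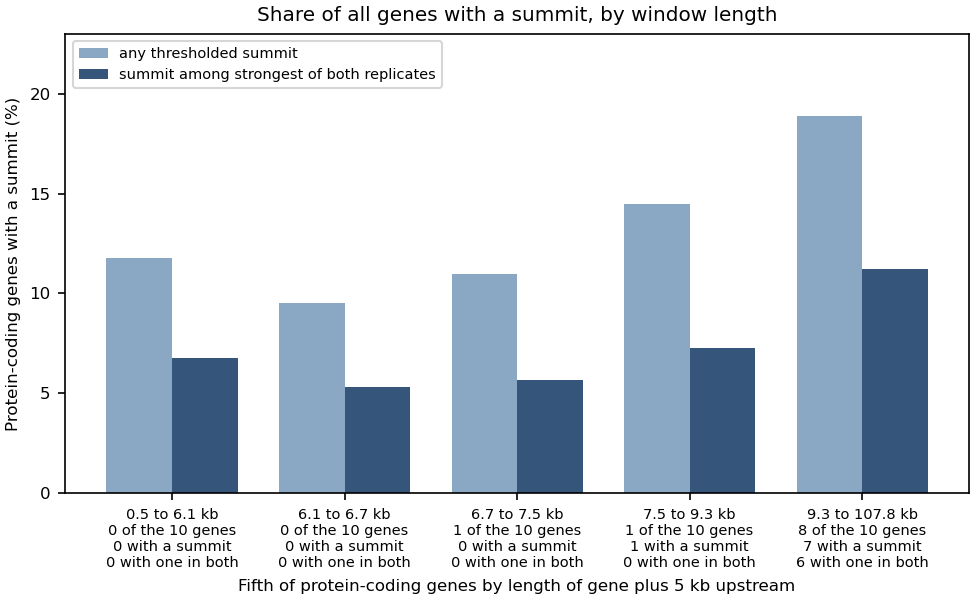
Percentage of protein-coding genes with a thresholded summit, in 5 groups of equal size, ordered by the length of gene plus 5 kb upstream. Light bars count any thresholded summit and dark bars a summit whose peak was overlapped by the strongest peaks of both replicates. Each group of genes is labelled with its window lengths and its share of the 10 temporal identity genes. In the group of longest windows the bars reach 18.9% and 11.2%, and 7 and 6 of its 8 temporal identity genes are counted.

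The separate replicates were then compared, although the pooled signal is not independent of them. Each replicate list was cut to its own 1826 strongest peaks, the length of the thresholded list. For 6 of the 11 summits, each in a different gene, the whole peak around the summit was overlapped by peaks of both cut lists by at least 1 bp. These were the strongest summits of lin-29, hbl-1, lin-41, mab-10 and lin-66, and that of lin-14, the next in signal. A summit with such support was present at 1447 genes, 7.24% of all protein-coding genes, and at 11.2% of those with the longest 20% of windows. Over all thresholded peaks 957 of 1826 (52.4%, Wilson 95% interval 50.1% to 54.7%) had it, so 6 of 11 is close to the general share. By itself replicate 1 supported 8 of the 11 and replicate 2 supported 9, against 67.3% and 79.1% of all thresholded peaks.

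**Figure D3:**
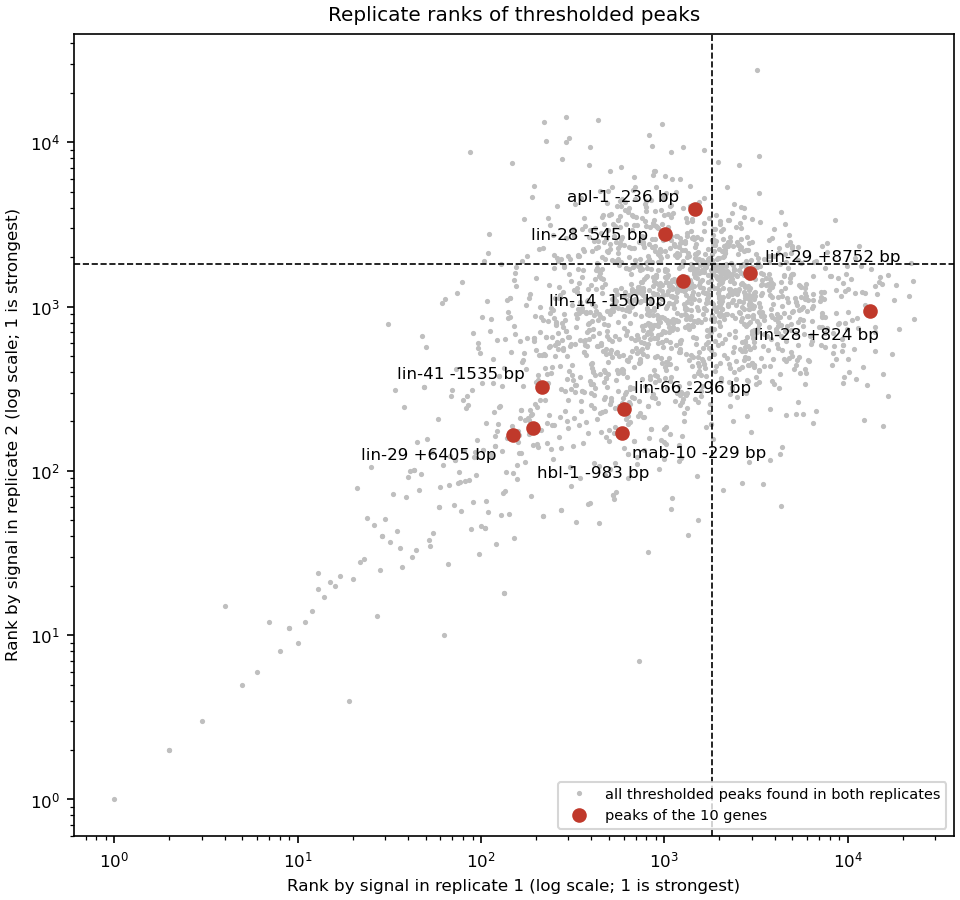
Rank by signal in replicate 1 against rank in replicate 2, both on log axes, for thresholded peaks overlapped by a peak in each replicate. Grey points are all such peaks and red points those of the temporal identity genes, labelled with the distance of the pooled summit from the outermost 5′ end. Dashed lines mark rank 1826. The strong peaks of lin-29, hbl-1, lin-41, mab-10 and lin-66 lie at ranks 150 to 603 in replicate 1 and 166 to 322 in replicate 2, and the peak of apl-1 at -2614 bp is not drawn because replicate 1 has none there.

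Of the 11 summits, 8 lay upstream of the genes and 3 in introns, with none in an exon. Over all protein-coding genes too, most of those with a thresholded summit had none inside the gene, since only 466 of the 2621 did. The split of all thresholded summits into upstream, intron and exon was not computed, so the absence from exons has no background beside it. Within 500 bp of one of the gene's own annotated 5′ ends lay 5 summits, in lin-14, lin-28, lin-66, mab-10 and apl-1. Over all protein-coding genes 960 (4.80%) had a thresholded summit that near. Among all thresholded summits, 44.7% were within 500 bp of some protein-coding 5′ end. Inside the gene itself, lin-28 and lin-29 had a summit, and the 466 genes were 2.33% of all protein-coding genes.

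The juvenile transcription factor genes hbl-1 and lin-14 were both bound upstream. For hbl-1 (WBGene00001824, chromosome X, 5822142 to 5827755, plus strand), which encodes a hunchback-like zinc-finger protein, 1 peak stood far above its surroundings. It had a pooled signal of 74.6 at 5820964 to 5821353, with the summit 983 bp upstream of the gene. The signal was 32.4 in replicate 1 and 48.4 in replicate 2, ranks 193 and 182. These ranks are almost equal, but the overlapping peak of replicate 1 had its summit 146 bp from the pooled summit, while that of replicate 2 coincided with it. The next pooled peak in the window reached 20.2, 3709 bp upstream.

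The hbl-1 summit held an NR5A site. The search covered 100 bp on each side of every summit, both strands, for the 9 letters of TCAAGGTCA with C or T allowed at the 1st and 7th and A or G at the last. It matched 63 of 1826 summit windows (3.45%, Wilson interval 2.71% to 4.39%), and 2 of the 11 here, hbl-1 and the strongest of lin-29. These were the strongest summits of all 11. The strict form TCAAGGTCA itself was in none of the 11 and in 0.931% of all windows. Both windows are shown on the plus strand of ce11 with the site in capitals, hbl-1 at chrX:5821059-5821259 and lin-29 at chrII:11928838-11929038.
hbl-1: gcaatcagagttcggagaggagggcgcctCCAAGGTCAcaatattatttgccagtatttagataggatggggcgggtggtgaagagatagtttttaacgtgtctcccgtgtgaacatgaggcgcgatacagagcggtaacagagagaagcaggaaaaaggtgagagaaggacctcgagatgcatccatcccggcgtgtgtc
lin-29: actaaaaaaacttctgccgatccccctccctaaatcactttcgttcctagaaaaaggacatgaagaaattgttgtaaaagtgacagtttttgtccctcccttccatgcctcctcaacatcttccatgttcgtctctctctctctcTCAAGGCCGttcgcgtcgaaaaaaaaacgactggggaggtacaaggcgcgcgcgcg

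In hbl-1 the site reads CCAAGGTCA and is centred 67 bp from the pooled summit, on its far side from the gene. It contains the nuclear receptor core AGGTCA, which was in 12.4% of all windows. The lin-29 site reads TCAAGGCCG, without that core, and is centred 49 bp from the summit. It lies directly after a run of CT repeats, which on the other strand is a run of 5 overlapping matches to GAGAGAG, the last sharing 2 bases with the site. That repeat was in 20.6% of all windows. With only 50 bp searched on each side, neither site lay fully inside.

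For lin-14 (WBGene00003003, chromosome X, 11465560 to 11485871, plus strand), whose product specifies the earliest larval fates, the pattern was broad and low. Its single thresholded summit lay 150 bp upstream of the outermost 5′ end, in the peak at 11465215 to 11465604, with a pooled signal of 40.4 and rank 972. Replicate 1 had 15.6 there (rank 1267) and replicate 2 had 22.0 (rank 1436), with summits within 2 bp of the pooled one. A further 35 pooled peaks lay below the threshold, 28 of them inside the gene and 24 in introns. That made 36 in 25312 bp, or 1.42 pooled peaks per kb, the highest density of the 10 genes. The median over all protein-coding genes was 0.182 per kb and the 95th percentile 0.971. Because the pooled list includes background, this density does not show how many of these peaks are binding.

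Several of these lesser lin-14 peaks came close to the threshold. The strongest, 3338 bp upstream, had 29.0 at rank 1996. An intronic peak 8794 bp into the gene also had 29.0, and one at 14057 bp, 744 bp before the start of the shorter transcript, had 28.4. In all, 6 fell between rank 1826 and rank 3652. The replicates did not rank these peaks alike. Replicate 1 had its highest lin-14 signals of 20.2 at 8168 bp and 19.4 at 16156 bp, where replicate 2 had 3.63 and 4.85. In replicate 2 the highest were 25.8 at 3326 bp upstream, where replicate 1 had 8.23, and 24.0 at 8744 bp, where replicate 1 had no peak. A pair of intronic peaks of replicate 1, with 14.8 at 6382 bp and 13.9 at 7294 bp, overlapped peaks of 18.2 and 17.3 in replicate 2, ranks 2166 and 2376. Only the promoter peak was among the 1826 strongest in both.

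**Figure D4:**
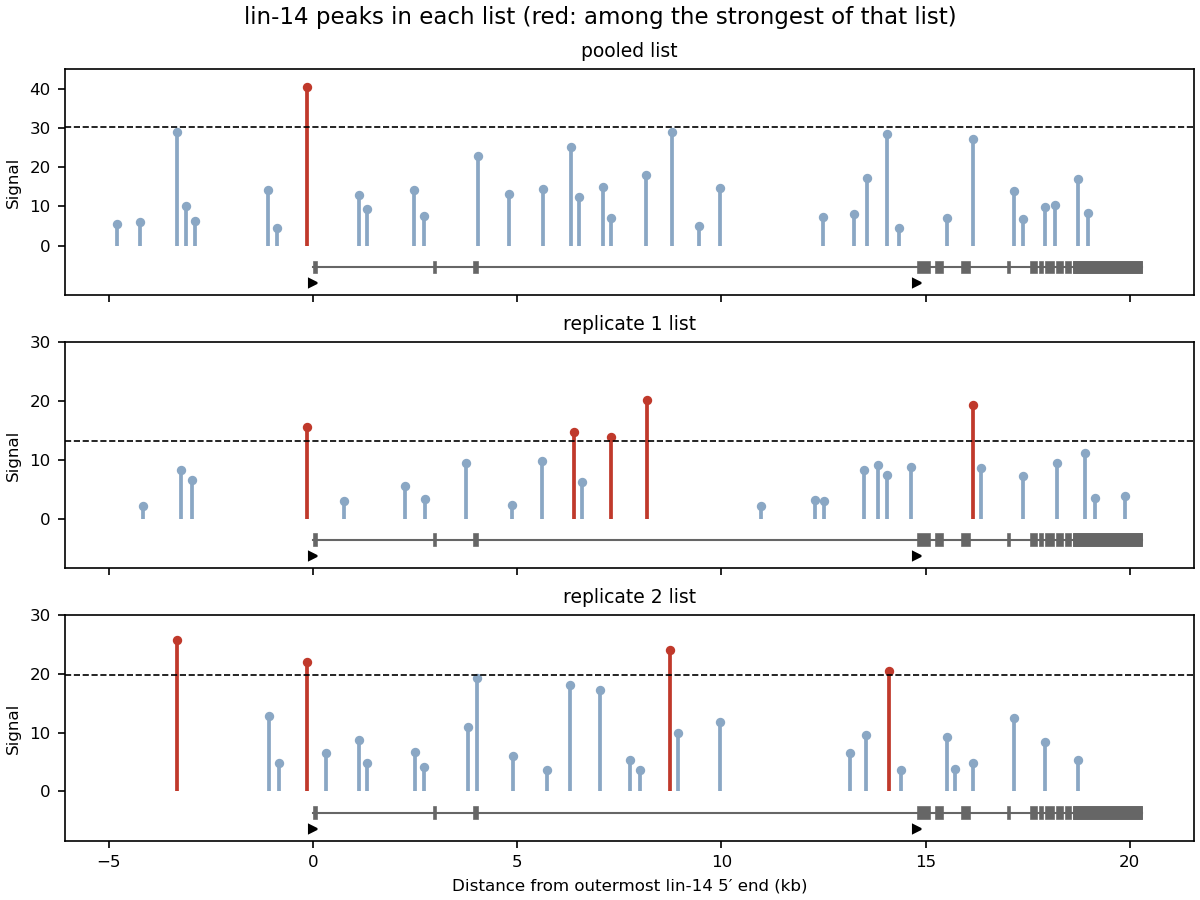
Peaks in the lin-14 window in the pooled list and in each replicate list. The horizontal axis is the distance in kb from the outermost 5′ end and the vertical axis the authors' signal in that list, which is not comparable between panels. Red stems are among the 1826 strongest peaks of their list, the dashed line is the lowest signal among those, grey boxes are exons and arrowheads 5′ ends. The promoter stem is red in all 3 panels, while red stems inside the gene differ between the replicates.

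The gene lin-66 (WBGene00001562, chromosome IV, 13888079 to 13893986, plus strand) lowers lin-28 in the pathway. It had 1 promoter peak of 59.1 at 13887588 to 13887977, 296 bp upstream. The signal was 21.7 in replicate 1 (rank 603) and 43.7 in replicate 2 (rank 237), so both placed it among their strongest. All 7 other pooled peaks in the window stayed at or below 18.2. Of the strong summits this one was the richest in GAGAGAG, with 6 matches, some overlapping, and no NR5A site. The window of the similarly strong mab-10 promoter peak matched none of the 6 motifs searched. The same held at lin-41, lin-14, both apl-1 summits, the upstream lin-28 summit and the weaker lin-29 summit. The other motifs searched were the EOR-1 type site GAGACGCAG and the E-box CACGTG. They were in 12.2% and 8.38% of all windows and in none of the 11. The windows of lin-66 and mab-10 are shown as examples with and without the repeat. That of lin-66 is chrIV:13887683-13887883 on the minus strand with the repeat in capitals, and that of mab-10 is chrII:10527755-10527955 on the plus strand.
lin-66: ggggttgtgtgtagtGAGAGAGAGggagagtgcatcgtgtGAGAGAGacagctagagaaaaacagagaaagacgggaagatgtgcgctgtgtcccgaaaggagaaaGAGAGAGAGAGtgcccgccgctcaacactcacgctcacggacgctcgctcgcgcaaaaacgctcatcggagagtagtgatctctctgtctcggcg
mab-10: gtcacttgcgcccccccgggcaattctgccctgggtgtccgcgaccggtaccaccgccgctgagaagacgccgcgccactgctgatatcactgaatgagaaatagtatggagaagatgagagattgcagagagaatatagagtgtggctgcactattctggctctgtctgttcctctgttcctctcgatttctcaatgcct

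No thresholded summit lay at lin-46 (WBGene00003031, chromosome V, 12968855 to 12970730, plus strand), whose product, related to the scaffold protein gephyrin, counters HBL-1 and is itself held back by LIN-28. Its window, at 6876 bp, was the shortest of the 10. The strongest pooled peak, 219 bp upstream, had a signal of 25.1 at rank 2641, below the threshold of 30.3. Overlapping peaks had 7.13 in replicate 1 and 10.5 in replicate 2, at ranks 5557 and 5650. Their summits lay apart, 568 bp upstream in replicate 1 and 200 bp upstream in replicate 2. In the last part of the gene replicate 1 had a peak of 13.0 at rank 1864, just outside its 1826 strongest, and replicate 2 one of 16.1 at rank 2689.

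At lin-28, the gene of an RNA-binding protein that blocks let-7 maturation (WBGene00003014, chromosome I, 8407630 to 8410804, minus strand), 2 weak summits flanked the outermost 5′ end. One lay 545 bp upstream, at 8411154 to 8411543, with a pooled signal of 34.0. Replicate 1 had 17.5 there (rank 1005) and replicate 2 had 15.7 (rank 2787), so only replicate 1 placed it among its strongest. The other lay 824 bp inside the gene at 8409785 to 8410174, in the first intron of the longer transcript and 60 bp before the start of the shorter one. Its pooled signal was 32.7. Replicate 2 had 26.6 there (rank 943) and replicate 1 had 3.81 (rank 13291), so only replicate 2 placed it among its strongest. This window held the core AGGTCA and the GAGAGAG repeat. Neither lin-28 summit was thus supported by the strongest peaks of both replicates.

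Of the genes that time the passage to adulthood, lin-41 had a strong distal peak and lep-2 the weakest signal of the set. LIN-41 is an RNA-binding protein of the TRIM-NHL type and a main target of let-7, encoded on chromosome I at 9334800 to 9342496, minus strand (WBGene00003026). Its peak at 9343836 to 9344225 had a pooled signal of 67.1 with the summit 1535 bp upstream. Replicate 1 had 30.9 (rank 215) and replicate 2 had 39.0 (rank 322). No other pooled peak lay upstream in the window, and the 5 inside the gene had at most 10.4. The gene lep-2 (WBGene00002278, chromosome IV, 992283 to 997644, plus strand), which encodes a Makorin-type protein that lowers LIN-28 late in larval life, had 3 pooled peaks of at most 6.60. The highest ranked 19065 of 30000 and overlapped no peak of either replicate. Its density of 0.290 pooled peaks per kb was the lowest of the 10, though above the median over all genes.

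The adult pair lin-29 and mab-10 were both strongly bound, in different places. The zinc-finger transcription factor gene lin-29 (WBGene00003015, chromosome II, 11917642 to 11935343, minus strand) had the strongest summit of the 10 genes deep inside the gene. It had a pooled signal of 82.9 at 11928743 to 11929132, in the 4th intron of both long transcripts, an intron of 10530 bp, and 6405 bp from the outermost 5′ end. The signal was 34.7 in replicate 1 (rank 150) and 49.9 in replicate 2 (rank 166), so both replicates ranked it alike. At that distance it is missed by assignment to 5′ ends within 2 kb, under which lin-29 has no peak. A second peak in the same intron, at 11926396 to 11926785, had 36.5, with 10.3 in replicate 1 (rank 2938) and 20.9 in replicate 2 (rank 1609). It lay 5153 bp before the start of the short transcript, which begins 13905 bp into the gene. The lin-29 promoter had no thresholded peak, and the highest pooled signal within 500 bp of the outermost 5′ end was 15.1.

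At mab-10 (WBGene00003107, chromosome II, 10528084 to 10534380, plus strand), which encodes a NAB-type cofactor of LIN-29, the peak was at the promoter. It had a pooled signal of 64.5 at 10527660 to 10528049, 229 bp upstream, with 21.9 in replicate 1 (rank 587) and 49.5 in replicate 2 (rank 171). Both replicates thus had it among their strongest. Below the threshold mab-10 was among the densest, with 14 further pooled peaks and 1.33 per kb in all. The highest of these, 2826 bp upstream, had 26.4. In replicate 1 an overlapping peak of 16.2 ranked 1176, and in replicate 2 the signal there was 8.55 (rank 7895).

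Binding at apl-1 was weak and differed between the replicates. This gene (WBGene00000149, chromosome X, 5112422 to 5116866, minus strand) encodes the worm relative of the amyloid precursor protein and is expressed in the epidermis under control of the pathway. Its promoter peak at 5116907 to 5117296, 236 bp upstream, had a pooled signal of 32.9. Replicate 1 had 14.6 (rank 1480), with a summit 260 bp away, and replicate 2 had 13.0 (rank 3950). The other, 2614 bp upstream at 5119285 to 5119674, had 33.2. It ranked 260 in replicate 2 with 41.9, and replicate 1 had no peak there. Between them, 1122 bp upstream, replicate 1 had its highest apl-1 signal of 16.1 (rank 1204), where replicate 2 had 5.44 (rank 15088) and no thresholded peak was called. No apl-1 summit was thus among the strongest of both replicates. Pooled peaks were frequent across the window, at 1.38 per kb.

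The remaining genes of the pathway give the context. A list of 27 further heterochronic regulators, including 6 microRNA genes and the noncoding gene lep-5, was searched in the same windows, and all 27 were located. Of the 20 protein-coding ones 14 had a thresholded summit, against 13.1% of all protein-coding genes. Most of these 20 windows were among the longest 20%, where the share was 18.9%. The strongest were at nhl-2 with 145 and at puf-9, a Pumilio-type RNA-binding protein gene, with 117. The nuclear receptor gene nhr-85 had 96.8 and the daf-12 partner gene din-1 had 88.4. The first pair were promoter or near-promoter peaks, 824 and 316 bp upstream. Signals at kin-20, hrpk-1, blmp-1, lin-42 and nhr-23 were 75.8, 62.0, 59.0, 54.3 and 51.0. Those at alg-1, ztf-16, sea-2, dre-1 and daf-12 were 41.2, 40.8, 40.7, 39.7 and 34.2. The dre-1 and ztf-16 summits with these signals were not supported by the strongest peaks of both replicates, while those of the other named protein-coding genes were. No thresholded summit lay at alg-2, dcr-1, cki-1, lin-22, rnt-1 or bro-1. Of the 7 noncoding genes, mir-48, mir-241 and let-7 had summits of 112, 72.1 and 60.8, and lin-4, mir-84, mir-237 and lep-5 had none. The share over all noncoding genes was not computed, so this count has no background beside it. Some of these windows share summits with other genes, as at the neighbouring mir-48 and mir-241. For the 27 genes it was not checked whether the 5′ end of another gene lay nearer to a summit.

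Other features of the 11 summits were set beside those of all 1826 thresholded peaks. All were 390 bp wide, the median width of the whole list. Their windows had a median GC content of 47.3% (range 42.3% to 55.7%), against 43.8% over all 1826. The GAGAGAG repeat was in 3 of the 11, at lin-28, lin-66 and lin-29, against 20.6% overall. The core AGGTCA was in 2, at lin-28 and hbl-1, against 12.4%, and the NR5A site in 2, at hbl-1 and lin-29, against 3.45%. On chromosome X lay 4 of the 11, at lin-14, hbl-1 and apl-1, against 23.8%. The median rank in replicate 2 was 322 (signal 39.0), against 924 (signal 26.8) over all thresholded peaks with a replicate 2 peak. In replicate 1, over the 10 with a peak, it was 804 (signal 19.6) against 1028.5 (signal 17.3). Distances to the nearest protein-coding 5′ end had a median of 545 bp, against 689 bp overall. Summits of replicate 2 lay at a median of 3 bp from the pooled summits and those of replicate 1 at 42.5 bp, where all thresholded peaks had 14 bp and 27 bp.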

How the data were processed

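ChIP-seq of tagged NHR-25 in whole L4 worms was deposited as narrowPeak lists for 2 biological replicates, their pool and a thresholded set, in builds ce10 and ce11. Only the 4 ce11 lists were used, because the annotation is of that build. The thresholded list came from the other lists by the irreproducible discovery rate, per the deposited text records. Which peak caller, aligner and threshold were used is not given in the sources used here. Each signal value is the authors' own, as deposited, on an unstated scale. The deposited −log10 q-value was not used to rank peaks, and the deposited summit offset gave each summit. The control that the labels point to was not used here.

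Ensembl release 115 genes and RefSeq sequence of WBcel235 were used; the spans of the 10 genes differed between these sources by at most 3 bp. let-7 was located by its RefSeq span. Each window began 5 kb upstream of the gene's outermost 5′ end. Assignment and motif search were tested on planted data. Tools were Python 3.11.15, pandas 2.3.3, numpy 2.4.6 and scipy 1.17.1. Replicate peaks were compared by overlap, with the strongest overlapping peak giving the replicate's value. No p-value was computed. Intervals on shares cover counting error only. All 10 genes, all their thresholded summits and every listed pathway gene with a summit are named. The genes, lists and motifs were chosen with earlier results of these data known.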

Additional observations from a re-analysis of the deposited data

How the results depend on the processing

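The number of temporal identity genes with a summit was 8 with 2 kb upstream (8.97% of all genes) or 10 kb (19.1%), with any overlap of the peak in place of its summit, and from the strongest peaks without replicate 1 (12.8%) or without replicate 2 (12.4%). It was also 8 when summits at or nearer to another gene were left out, an alternative added after seeing the data. With the nearest 5′ end within 2 kb it was 7, without lin-29. For this setting, for any overlap of the peak and for the left-out summits, no share over all genes was computed. These counts therefore have no background beside them. With the gene body alone it was 2 genes and 3 summits (2.33% of all genes), and with the thresholded peaks above the median signal 5 genes and 5 summits (7.37%). The 11 summits became 12 without replicate 1 and 14 without replicate 2, where lin-14 had 4 and 5 in place of 1. Overlap with both replicates rose from 6 to 10 of 11 when all peaks of each replicate counted, 8 with the strongest 3652. With all peaks counted such overlap was general. Of the 1826 thresholded peaks, 1798 overlapped a replicate 1 peak and 1821 a replicate 2 peak. For the strongest 3652 no share over all thresholded peaks was computed. The NR5A site was in 0 windows with 50 bp on each side and in 0 with the strict form, and in 2 with 200 bp or the whole peak. For 50 bp, 200 bp and the whole peak no share over all thresholded peaks was computed. Single replicates were alternatives added after seeing the data, and there each replicate's own strongest summits in the windows were counted. Without replicate 2 the site was in 1 of 14, losing hbl-1, and without replicate 1 in 2 of 12. In each, 4 summits lay within 500 bp of a 5′ end. No shares over all of a replicate's strongest peaks were computed for these counts. The causes of these shifts were not tested. No paired analysis was possible because there is 1 group. Read depth is unknown, so a gene without a thresholded peak, such as lep-2, cannot be called unbound.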

Other observations

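Beyond the 5 kb windows, 4 more thresholded summits lay between 5 and 10 kb upstream of the temporal identity genes. At apl-1, peaks 6378 and 7539 bp upstream had pooled signals of 35.9 and 31.1, and no other protein-coding 5′ end was nearer, giving 4 thresholded summits in 10 kb of upstream sequence. The peak 7498 bp upstream of hbl-1 had 31.6, with hbl-1 again the nearest gene, and ranked 810 in replicate 2 and 4176 in replicate 1. None of these 3 was among the 1826 strongest peaks of both replicates. The summit 6177 bp upstream of lin-66, with 47.5, lay 323 bp from the 5′ end of the ribosomal protein gene rpl-29.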
